A study of Homo sapiens with 6 samples.

Results

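The 10 genes described here encode precursors of the cornified envelope and proteins that build or crosslink it. They are the small proline-rich protein genes SPRR1A, SPRR1B, SPRR2A, SPRR2D and SPRR3, the involucrin gene IVL, the plakin genes PPL and EVPL, the transglutaminase gene TGM1 and the matrix protein gene ECM1. They were picked by symbol from the 22503 genes of the count table, and all 10 were found. The set was chosen by function but also from earlier results of the comparison of DHA with DMSO, so the members' calls in that comparison are given as a description and support nothing beyond themselves. RNA was sequenced from CAL-27, an established keratinocyte-like line of a human tongue squamous cell carcinoma. The groups were 3 libraries from cells kept for 48 h in the solvent DMSO and 3 from cells kept for 48 h in DHA, which was read as dihydroartemisinin because the series is about artemisinin derivatives. No genetic change separates the groups, no dose was found in the labels, and all libraries come from a single cell line. Whether a group's libraries stem from separate dishes is not said in the labels. The p-values therefore reflect only how far these libraries scatter, and that scatter could be purely technical.

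The cornified envelope is a shell of crosslinked protein that replaces the plasma membrane of a keratinocyte as it leaves the living layers of stratified epithelium. Envoplakin and periplakin form an early scaffold under the membrane with involucrin, small proline-rich proteins are then joined to it as flexible bridges, and transglutaminases weld the parts together through bonds between glutamine and lysine. In the mouth and tongue, small proline-rich proteins are prominent components of this shell. In skin, loricrin and filaggrin dominate the later steps.

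The libraries held 35980670 to 38120267 counts over genes, so 1 count corresponded to 0.0263 to 0.0277 CPM, the count scaled by the library's normalised total, and the floor of 3 counts to 0.0788 to 0.0830 CPM. Intervals and floors given here cover counting error only. Of the 10 markers of squamous keratinocytes that were looked up, all were measured. Their summed level was 5455 to 7191 CPM in DMSO and 4124 to 4794 CPM in DHA, and KRT5 alone stood at 1674 to 2371 CPM. By edgeR and by limma-voom KRT6A rose and 0 of the 10 fell, while DESeq2 also called DSP and KRT17 lower. At an unadjusted p under 0.05, 2 were higher and 4 lower in edgeR. Markers of other cell types were low: 7 of 8 fibroblast markers summed to 13.5 to 23.4 CPM in DMSO and 9.17 to 13.2 CPM in DHA, mostly COL1A1, and 3 of 5 melanocyte markers to 0.913 to 1.62 CPM over all libraries. The 5 immune markers measured summed to 41.7 to 56.1 CPM, mostly CD68, and the 5 endothelial ones to 15.6 to 26.7 CPM, mostly CDH5. CD14, an immune marker, fell (adjusted p = 0.0240 by edgeR). The melanocyte marker TYR held at most 1 count in any library. DMSO 1 stood apart from the other DMSO libraries in several genes, such as KRT17 at 2546 CPM against 1122 and 1105 CPM. For the SPRR sum and the members, results that turn on it are also given without it. The DESeq2 calls of KRT17 and of DSP, at 759 CPM in DMSO 1 against 474 and 465 CPM, are not. The part of these levels in the results on the envelope genes was not tested.

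After DHA, transcripts of 3 small proline-rich protein genes were more abundant, while SPRR2A, PPL, EVPL, TGM1 and ECM1 were not called in either direction by edgeR, DESeq2 or limma-voom. SPRR1A, SPRR1B and SPRR2D rose 5.74-fold, 5.14-fold and 5.75-fold, and the 5 small proline-rich genes summed rose 5.20-fold, from 1.83 ± 0.829 to 9.56 ± 1.25 CPM (SD, n = 3). All were scarce transcripts: the most abundant, SPRR1B, reached 5.94 ± 0.914 CPM in DHA. By edgeR (quasi-likelihood F test, p adjusted by Benjamini-Hochberg over 14649 genes), 8 of the 10 members could be tested, 3 were called higher and 0 lower. Over all genes tested 2.70% were called, 1.10% as higher and 1.60% as lower. DESeq2 and limma-voom called the same 3 members. At an unadjusted p under 0.05, 4 members were higher in each tool, the 3 called and SPRR2A (0.0256 in edgeR), and 1, EVPL, was lower. In 6 of the 8 tested members the libraries of the groups did not overlap, against 27.8% of all genes tested. The filter on low counts bears on these numbers, because SPRR1A, SPRR2A and SPRR2D reached 10 counts in all 3 libraries only in DHA and so were tested only through the group where they were high. SPRR3 and IVL fell below the filter. In bulk RNA, more cells that express a gene and more RNA per cell cannot be told apart.

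**Figure D1:**
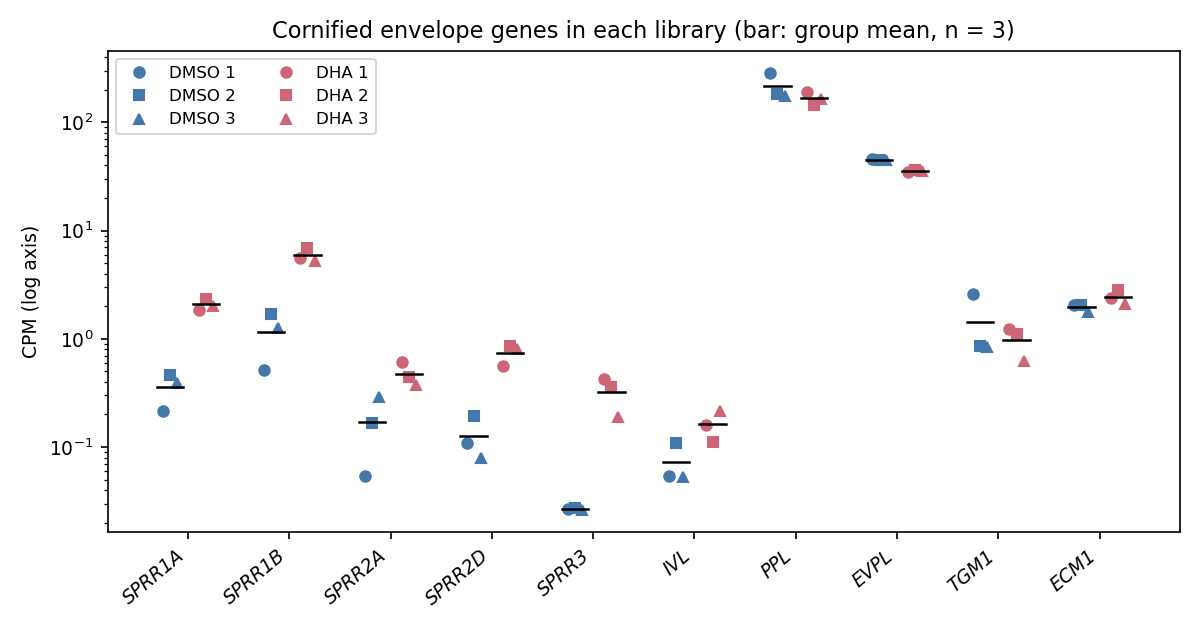
Level of each of the 10 genes in each library, in CPM on a log axis, with points for libraries and black bars for group means. The small proline-rich genes of the 3 DHA libraries lie above those of the 3 DMSO libraries, while PPL and TGM1 overlap and are highest in DMSO 1.

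The SPRR genes and IVL lie in the epidermal differentiation complex of chromosome 1, a cluster of genes used late in keratinocyte maturation. The 5 SPRR members occupy 73.4 kb, from 152984081 to 153057512 (GRCh38.p14), in the order SPRR1A, SPRR3, SPRR1B, SPRR2D and SPRR2A. RefSeq promoter windows were found for 6 of the 10 members, SPRR1A, SPRR1B, SPRR2A, SPRR3, IVL and ECM1. The 250 bases before the start of 5 of them are shown, for the 4 SPRR members that have a window and for IVL, the other precursor gene of the same complex. All 6 windows held the AP-1 motif TGANTCA on either strand, which 6.6% of 27303 promoter windows of the same length held. AP-1 is the dimer of FOS and JUN family proteins. Capitals mark TGANTCA and the TATA sequence TATAAA, which was added to the search after the data were seen.
SPRR1A: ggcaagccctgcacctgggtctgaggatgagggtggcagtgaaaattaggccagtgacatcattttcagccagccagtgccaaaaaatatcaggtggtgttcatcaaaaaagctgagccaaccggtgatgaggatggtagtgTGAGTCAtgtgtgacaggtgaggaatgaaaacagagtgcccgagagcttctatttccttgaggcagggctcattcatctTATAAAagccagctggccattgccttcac
SPRR1B: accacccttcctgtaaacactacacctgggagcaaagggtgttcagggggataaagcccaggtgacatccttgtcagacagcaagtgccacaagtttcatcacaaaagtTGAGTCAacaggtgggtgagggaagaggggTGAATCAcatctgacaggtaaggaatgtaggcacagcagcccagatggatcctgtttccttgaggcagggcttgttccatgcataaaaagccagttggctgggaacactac
SPRR2A: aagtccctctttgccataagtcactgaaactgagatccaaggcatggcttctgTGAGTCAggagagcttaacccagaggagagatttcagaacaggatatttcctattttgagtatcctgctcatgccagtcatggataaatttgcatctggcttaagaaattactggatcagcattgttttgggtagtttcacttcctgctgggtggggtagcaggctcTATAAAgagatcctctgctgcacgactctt
SPRR3: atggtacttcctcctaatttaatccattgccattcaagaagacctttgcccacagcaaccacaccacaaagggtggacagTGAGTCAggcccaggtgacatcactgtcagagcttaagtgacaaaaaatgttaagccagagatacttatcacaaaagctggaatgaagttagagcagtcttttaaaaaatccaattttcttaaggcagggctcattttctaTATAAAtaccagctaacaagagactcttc
IVL: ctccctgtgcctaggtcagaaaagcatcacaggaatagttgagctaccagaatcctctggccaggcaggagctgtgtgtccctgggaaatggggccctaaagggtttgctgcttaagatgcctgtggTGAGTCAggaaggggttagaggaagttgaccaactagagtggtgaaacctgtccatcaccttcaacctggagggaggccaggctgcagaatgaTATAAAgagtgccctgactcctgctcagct

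In these windows, which lie at chr1:152983831-152984080 for SPRR1A, chr1:153030953-153031202 for SPRR1B, chr1:153057513-153057762 on the minus strand for SPRR2A, chr1:153001499-153001748 for SPRR3 and chr1:152908296-152908545 for IVL, the AP-1 motif began 108 bases before the start in SPRR1A, 197 in SPRR2A, 170 in SPRR3 and 123 in IVL. SPRR1B held 2 copies, at 141 and 111 bases, and ECM1 also held 2, at 204 and 78 bases. The TATA sequence TATAAA stood 29 or 30 bases before the start in SPRR1A, SPRR2A, SPRR3, IVL and ECM1 and was not matched in SPRR1B, against 11.1% of all windows. The ETS core GGAAG was found in 5 of the 6 (65.1% of all windows), its variant GGAAA in 4 (56% of all windows) and the KLF motif GGGTG in 5 (53.7%). The interferon-stimulated core GAAANNGAA was found in SPRR1A alone (7.06% of all windows), where it overlaps the GGAAA match, as a GGGTG match overlaps the second AP-1 match of SPRR1B, and the antioxidant core TGACNNNGC in 0 of the 6 (11% of all windows). These are letter matches on both strands and say nothing about binding. The AP-1 letters TGAGTCA stood in all 6 windows, and the part of this motif in the levels was not tested.

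SPRR1B, which encodes cornifin-B and is the most abundant member of the family here, was at 0.513, 1.68 and 1.26 CPM in DMSO 1, 2 and 3 and at 5.60, 6.97 and 5.23 CPM in DHA 1, 2 and 3. The groups were far apart, with the lowest DHA library 3.12 times the highest DMSO library, and DMSO 1 stood lowest. SPRR1B rose by 2.36 ± 0.37 on the log2 scale (SE, edgeR's adjusted p = 0.0159), and by 2.01 without DMSO 1 (edgeR's adjusted p = 0.0225). SPRR1B passed the filter on the counts of both groups, with 19 to 61 counts in DMSO and 194 to 252 in DHA.

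SPRR1A, which encodes cornifin-A, was at 0.216, 0.468 and 0.394 CPM in DMSO and at 1.86, 2.35 and 2.02 CPM in DHA, in the order of the replicate numbers. DMSO 1 was again lowest and DHA 2 highest, and the lowest DHA value was 3.97 times the highest DMSO value. SPRR1A rose by 2.52 ± 0.36 on the log2 scale (SE, edgeR's adjusted p = 0.0125), and by 2.26 without DMSO 1 (edgeR's adjusted p = 0.0288). SPRR1B held 2.38 to 3.59 times as many counts as SPRR1A in the DMSO libraries and 2.59 to 3.01 times in the DHA libraries, and these ranges overlapped.

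The SPRR2 subfamily, whose members act as short crosslinkable bridges, was scarcer. SPRR2D was at 0.108, 0.193 and 0.0788 CPM in DMSO, which were 4, 7 and 3 counts, and at 0.558, 0.857 and 0.809 CPM in DHA, which were 21, 31 and 30 counts. The groups did not overlap, and SPRR2D rose by 2.52 ± 0.48 on the log2 scale (SE, edgeR's adjusted p = 0.0290). SPRR2A was at 0.0540, 0.165 and 0.289 CPM in DMSO and at 0.611, 0.442 and 0.378 CPM in DHA. Its groups did not overlap either, but the lowest DHA library was only 1.31 times the highest DMSO library, the DMSO values differed 5.35-fold among themselves, and it did not pass (log2 fold change 1.47 ± 0.56, adjusted p = 0.187 by edgeR). Without DMSO 1, the log2 fold change was 1.05 for SPRR2A and 2.43 for SPRR2D (edgeR's adjusted p = 0.326 and 0.0840). Summed, SPRR2A and SPRR2D gave 6, 13 and 14 counts in DMSO and 44, 47 and 44 in DHA (log2 fold change 2.03 ± 0.40, adjusted p = 0.0317 by edgeR).

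SPRR3, the esophagin gene, which is typical of oral and esophageal lining, had 1 count in each DMSO library and 16, 13 and 7 counts in DHA 1, 2 and 3. All 3 DHA libraries stood above the floor and all 3 DMSO libraries below it. The ratio of the summed counts, 36 against 3, was 12.1 with an exact 95% counting interval of 3.81 to 61.2. Fitted without the filter, SPRR3 had a log2 difference of 3.44 ± 0.81 (SE, edgeR's adjusted p = 0.0223), a fitted value that depends on the prior count.

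The other SPRR genes were looked up as well, and SPRR2E, SPRR2F, SPRR4 and SPRR5 had rows. SPRR2E had 0, 2 and 0 counts in DMSO and 8, 7 and 0 in DHA, and SPRR2F had 0, 1 and 0 in DMSO and 0, 7 and 1 in DHA. SPRR4 and SPRR5 had 1 count each in all 6 libraries together. Summed, these 4 genes gave 4 counts in DMSO, all in DMSO 2, and 24 in DHA, of which DHA 3 held 1. The groups overlapped, and an exact permutation test over the 6 libraries, two-sided, gave p = 0.2, where the smallest p the design allows is 0.1. That test could not pass a threshold of 0.05 at any depth. The ratio of summed counts was 7.53 for SPRR2E, 15 against 2, with an exact 95% counting interval of 1.75 to 67.9, and 8.04 for SPRR2F, 8 against 1, with one of 1.08 to 357. These intervals leave out the spread between libraries, in which DHA 3 held 0 counts of SPRR2E and DHA 1 held 0 of SPRR2F.

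Because SPRR paralogs are alike, counters can drop or split their reads. Of the 50-base windows in the GENCODE 29 transcripts of SPRR2A, 32.7% also occurred in transcripts of other genes, all of them SPRR2 paralogs, and 20.3% of the 100-base and 10.5% of the 150-base windows did. For SPRR2D the shares were 19.3%, 3.74% and 0%. SPRR1B shared 4.38% of its 50-base windows, with SPRR1A alone, and 0% of its 100-base windows, while SPRR3 shared 0% at each length. SPRR1A is held there as coding sequence alone, of which 11.3% of the 50-base windows and 0% of the 100-base windows were shared. SPRR2E shared 23.4% of its 50-base and 11.3% of its 100-base windows, and SPRR2F 18.2% of its 50-base windows, all with SPRR2 paralogs. Since no read length was found in the labels, the SPRR2A, SPRR2D, SPRR2E and SPRR2F values are uncertain. The sum of SPRR2A and SPRR2D is given beside their values.

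The summed counts of the 5 SPRR members were 34, 92 and 78 in DMSO 1, 2 and 3 and 341, 397 and 320 in DHA 1, 2 and 3. The groups were separated by a factor of 3.41 between the highest DMSO and the lowest DHA library. The log2 fold change of the sum was 2.38 ± 0.33 (SE, adjusted p = 0.0121 by edgeR, over 14646 rows in which the sum replaced the SPRR genes). Within DHA the sum varied by 13.1%, where counting error alone gives 5.32%. Within DMSO it varied by 45.2%, where counting error alone gives 12.1%, because DMSO 1 held well under the counts of the other DMSO libraries. Without DMSO 1 it was 2.06 on the log2 scale (edgeR's adjusted p = 0.0193). Without DHA 1 it was 2.42 and missed the threshold (adjusted p = 0.0509 by edgeR), as did SPRR1A and SPRR1B (0.0573 each). SPRR2D passed only with all libraries or without DHA 3, and its adjusted p was 0.0701 to 0.0840 with any other library left out.

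**Figure D2:**
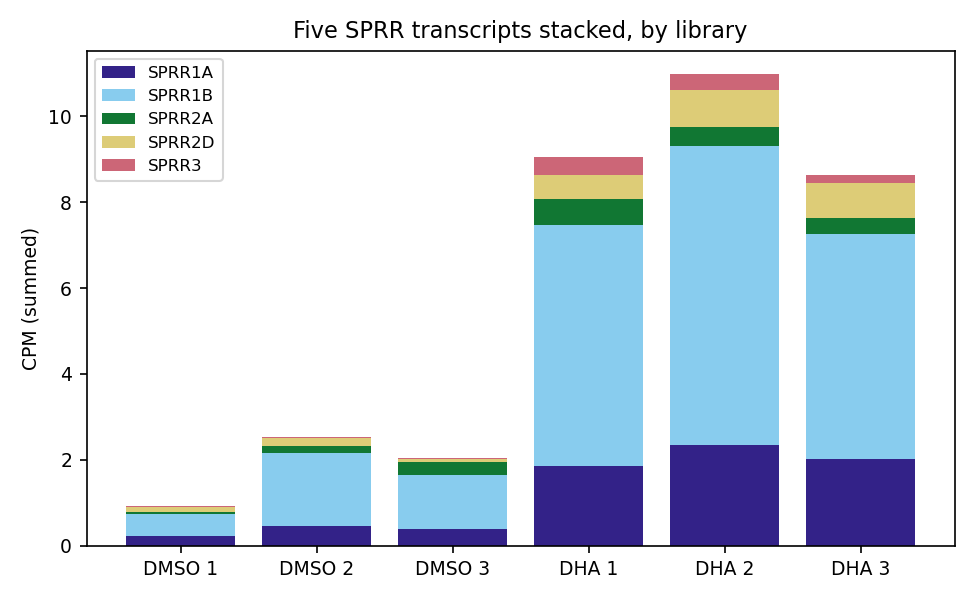
CPM of the 5 SPRR members stacked for each of the 6 libraries, on a linear axis from 0. The stacks reach 0.918 to 2.53 CPM in DMSO and 8.63 to 10.98 CPM in DHA, and SPRR1B makes up the largest piece of each.

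The make-up of the sum was not tested between the groups. SPRR1B held 55.9%, 66.3% and 61.5% of the SPRR counts in DMSO 1, 2 and 3 and 61.9%, 63.5% and 60.6% in DHA 1, 2 and 3. In DMSO 1, the thinnest library with 34 SPRR counts, the 95% Wilson interval ran from 39.5% to 71.1%, which takes in all the other values. SPRR1A held 18.5% to 23.5% in DMSO and 20.5% to 23.4% in DHA. The share of SPRR2A was 5.88% to 14.1% in DMSO and 4.03% to 6.74% in DHA, and that of SPRR3 1.09% to 2.94% and 2.19% to 4.69%. The highest SPRR2A share, in DMSO 3, rested on 11 counts, and its Wilson interval of 8.06% to 23.5% lay above those of DHA 2, 2.50% to 6.45%, and DHA 3, 2.62% to 7.21%.

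IVL encodes involucrin, an early precursor that transglutaminase joins to the scaffold. Its gene lies at chr1:152908546-152911886. It had 2, 4 and 2 counts in DMSO and 6, 4 and 8 in DHA, so DMSO 2 and DHA 2 held the same number. The ratio of the sums, 18 against 8, was 2.26 with an exact 95% counting interval of 0.935 to 6.01. It could be tested only without the filter, where edgeR gave 1.14 ± 0.79 on the log2 scale (SE, adjusted p = 0.514). These counts did not resolve whether IVL differed between the groups.

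The plakin genes, which encode the scaffold proteins that other envelope parts attach to, were the best expressed members. PPL, the periplakin gene at chr16:4882507-4937148, was at 288, 184 and 176 CPM in DMSO and at 190, 145 and 164 CPM in DHA. The groups overlapped, DMSO 1 stood alone at the top, and the log2 fold change of -0.37 ± 0.20 did not pass (SE, adjusted p = 0.311 by edgeR). Without DMSO 1 it was -0.11. EVPL, the envoplakin gene at chr17:76006845-76027306, was at 45.7, 45.2 and 45.0 CPM in DMSO and at 34.9, 36.6 and 35.8 CPM in DHA. All 3 DHA libraries lay below all 3 DMSO libraries, the lowest DMSO and the highest DHA library being 45.0 and 36.6 CPM and the SDs 0.358 and 0.831 CPM. The log2 fold change of -0.34 ± 0.12 still missed the threshold (SE, unadjusted p = 0.0182, adjusted p = 0.161 by edgeR). Across the fits that left out a library it was -0.36 to -0.32.

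TGM1, at chr14:24249114-24263177, the transglutaminase bound to the keratinocyte membrane that crosslinks the envelope, was at 2.59, 0.854 and 0.841 CPM in DMSO and at 1.22, 1.11 and 0.620 CPM in DHA. The groups overlapped and DMSO 1 held 96 counts against 31 and 32 in the other DMSO libraries. Its log2 fold change of -0.54 ± 0.49 did not pass (SE, adjusted p = 0.550 by edgeR), and without DMSO 1 the sign turned, to 0.21 (adjusted p = 0.807 by edgeR). ECM1, at chr1:150508109-150513789, a secreted glycoprotein of the epidermal basement membrane and the differentiating layers, was at 2.05, 2.07 and 1.79 CPM in DMSO and at 2.36, 2.85 and 2.10 CPM in DHA. Its groups just missed touching, and the log2 fold change of 0.31 ± 0.25 did not pass (SE, adjusted p = 0.491 by edgeR).

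**Figure D3:**
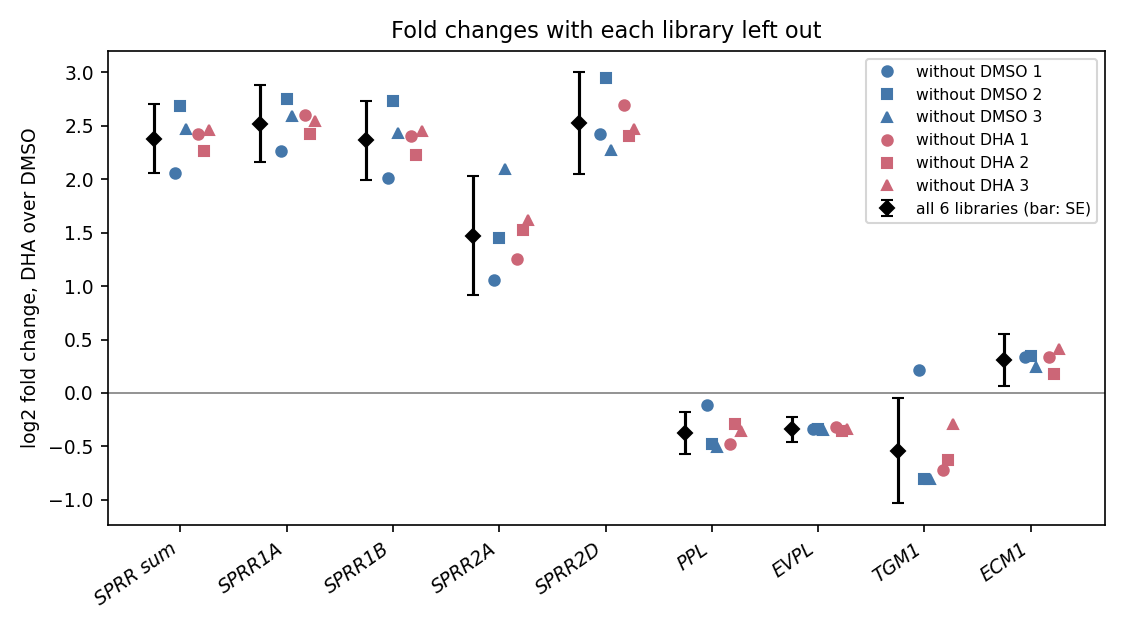
Log2 fold change of DHA over DMSO for the SPRR sum and the 8 tested members, with all 6 libraries (black, bar for SE) and with each library left out. The SPRR values keep between 1.05 and 2.95, and TGM1 crosses to 0.21 without DMSO 1.

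Set per length of the gene model, the order of the members differed between the groups. Length was available for 9 of the 10, as the union of GENCODE 29 exons. In DMSO, PPL led with 34.6 ± 10.01 CPM per kb, followed by EVPL with 6.78 ± 0.0537 and SPRR1B with 1.86 ± 0.953 (SD, n = 3). ECM1 followed with 0.909 ± 0.0727 CPM per kb, TGM1 with 0.515 ± 0.363, SPRR2A with 0.239 ± 0.166, SPRR2D with 0.120 ± 0.0560, IVL with 0.0336 ± 0.0153 and SPRR3 with 0.0273 ± 0.000643. The ranges of SPRR1B, ECM1 and TGM1 overlapped, as did those of TGM1 and SPRR2A, of SPRR2A and SPRR2D, and of IVL and SPRR3. In DHA the level of SPRR1B, 9.57 ± 1.47 CPM per kb, stood above that of EVPL, 5.36 ± 0.124, in every library. Below them came ECM1 with 1.13 ± 0.174, SPRR2D with 0.701 ± 0.152, SPRR2A with 0.673 ± 0.170, TGM1 with 0.354 ± 0.115, SPRR3 with 0.329 ± 0.124 and IVL with 0.0752 ± 0.0245. There SPRR2D and SPRR2A overlapped, and so did TGM1 and SPRR3.

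Of the 43 genes of the epidermal differentiation complex in the table, taken from S100A10 to S100A1, 28 had a mean under 1 CPM and 21 were tested. The 3 called higher were SPRR1A, SPRR1B and SPRR2D. Of the 17 tested genes outside the SPRR family, 0 were called higher by edgeR or limma-voom, and DESeq2 called S100A16 higher. Of all genes tested, edgeR called only 1.10% higher and 1.60% lower, so 0 among 17 is near that share. S100A16 was at 164 and 254 CPM in DMSO and DHA and just missed the threshold by edgeR (adjusted p = 0.0506). Among the 17, 4 were higher and 2 lower at an unadjusted p under 0.05 in edgeR. Their median log2 fold change was 0.25, against 0.00 over all genes tested. The log2 fold changes of the 17 ran from -1.57 for S100A7A to 0.95 for LOC101928034. PGLYRP4, a peptidoglycan recognition protein gene that lies 346 kb from the start of SPRR1A, fell from 12.6 ± 1.05 to 4.53 ± 1.67 CPM (SD, n = 3), by 1.47 on the log2 scale (adjusted p = 0.0219 by edgeR), and missed the threshold without DMSO 1, DMSO 2 or DHA 1 (0.0586, 0.0736 and 0.0996). The most abundant of the others were S100A2, at 992 and 1552 CPM in DMSO and DHA, S100A11, at 379 and 485 CPM, and S100A6, at 349 and 537 CPM, and none of these passed (adjusted p = 0.145, 0.237 and 0.174 by edgeR).

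**Figure D4:**
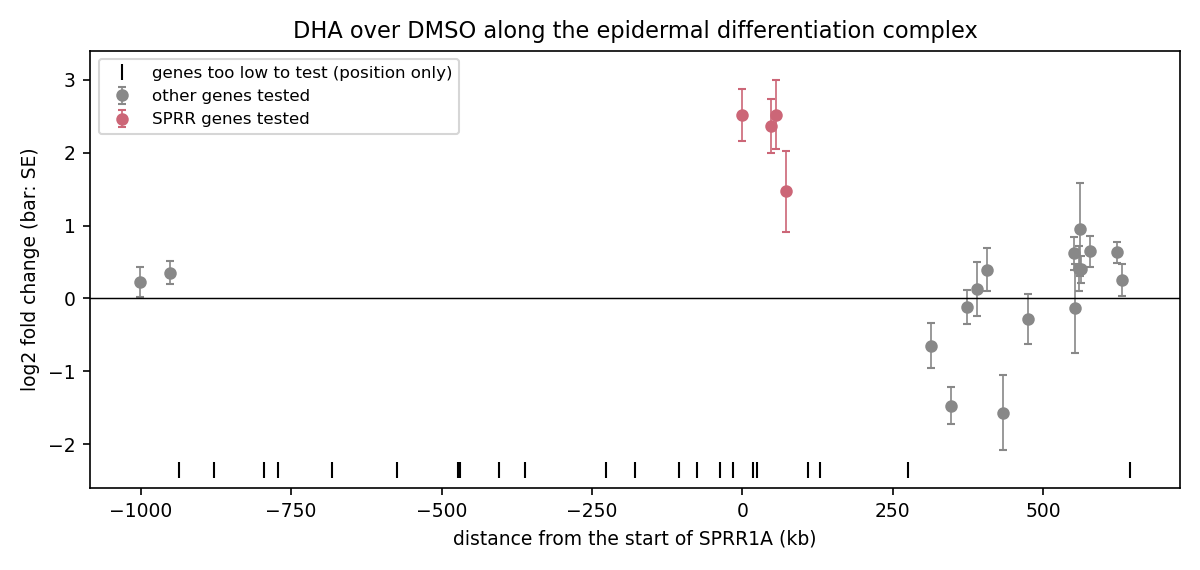
Log2 fold change of DHA over DMSO (bar for SE) for the 21 tested genes of the epidermal differentiation complex, by distance in kb from the start of SPRR1A, with ticks for the genes too low to test. The 4 tested SPRR genes lie between 1.47 and 2.52, and the 17 others between -1.57 and 0.95.

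Other envelope and keratohyalin genes were mostly silent or did not pass. Of 20 in the table, 9 were tested, and 0 were called in edgeR or limma-voom, where edgeR called 2.70% of all genes tested. DESeq2 called DSP lower. The median log2 fold change was 0.18, against 0.00 over all genes tested, and 3 had an unadjusted p under 0.05 in edgeR. The loricrin gene LORICRIN and the filaggrin gene FLG, the main proteins of skin envelopes and keratohyalin, had 1 and 3 counts in all, each in DMSO 1. The highest were ANXA1, an annexin, at 1125 ± 34.7 and 1278 ± 68.6 CPM, DSP, the desmoplakin gene, at 566 ± 167 and 348 ± 68.6 CPM, and S100A11 (adjusted p = 0.397, 0.124 and 0.237 by edgeR). CNFN, the cornifelin gene, named after its values were seen, had 11, 12 and 9 counts in DMSO and 24, 29 and 15 in DHA (log2 fold change 1.09 ± 0.42, adjusted p = 0.194 by edgeR).

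Enzymes that crosslink or cut envelope proteins gave 0 calls among 17 tested by edgeR or limma-voom. At an unadjusted p under 0.05, 2 were lower in edgeR. DESeq2 called PADI3, a deiminase gene, lower. The median log2 fold change was -0.14. The 3 with the highest levels, the protease genes CTSD, CAPN1 and ST14, were at 1138, 643 and 244 CPM in DMSO and at 1035, 657 and 206 CPM in DHA (adjusted p = 0.630, 0.910 and 0.362 by edgeR).

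Of 11 tested genes of the lipid layer that covers the envelope, 1 rose and 1 fell by edgeR and limma-voom, where 2.70% of all genes tested were called by edgeR, and the median log2 fold change was 0.17. DESeq2 called the same genes and also ABHD5 and SMPD1 higher. ALOXE3, an epidermal lipoxygenase gene, was at 7.21, 6.78 and 5.81 CPM in DMSO and at 15.6, 13.8 and 14.5 CPM in DHA. Its groups were well apart, and it rose by 1.15 ± 0.16 on the log2 scale (SE, adjusted p = 0.0125 by edgeR). UGCG, the glucosylceramide synthase gene, was at 203, 223 and 230 CPM in DMSO and at 110, 90.9 and 117 CPM in DHA, again without overlap, and fell by 1.05 on the log2 scale (adjusted p = 0.0100 by edgeR). Both calls were lost without DMSO 2 (edgeR's adjusted p = 0.0624 for ALOXE3 and 0.0503 for UGCG) and without DHA 1 (0.0712 and 0.0573). Among the rest, ELOVL1 did not pass in any of the 3 tools (adjusted p = 0.496 by edgeR), and ABHD5 and SMPD1, higher by DESeq2, did not pass by edgeR (adjusted p = 0.0987 and 0.104).

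Of 21 tested regulators of late keratinocyte differentiation, 2 rose and 0 fell by edgeR and limma-voom. Over all genes tested, edgeR called 2.70%. At an unadjusted p under 0.05, 4 regulators were higher and 7 were lower in edgeR. DESeq2 also called JUN higher and FOS and ZNF750 lower. FOS was at 9.86, 4.38 and 3.47 CPM in DMSO and ZNF750 at 5.89, 2.64 and 1.84 CPM, so both were highest in DMSO 1. These calls are not given without it. The median log2 fold change was -0.04. FOSL1, an AP-1 subunit, was at 95.4, 116 and 113 CPM in DMSO and at 247, 223 and 238 CPM in DHA and rose by 1.13 ± 0.13 on the log2 scale (SE, adjusted p = 0.00598 by edgeR). KLF4, a zinc finger factor of barrier formation, was at 38.6, 30.1 and 28.96 CPM in DMSO and at 52.5, 49.9 and 55.2 CPM in DHA and rose by 0.69 ± 0.15 (SE, adjusted p = 0.0431 by edgeR). FOSL1 missed the threshold without DHA 1 (adjusted p = 0.0529 by edgeR), and KLF4 without DMSO 2, DMSO 3, DHA 1 or DHA 2 (0.176, 0.142, 0.169 and 0.0599). The highest of the rest, EHF, TP63 and FOSL2, did not pass (adjusted p = 0.922, 0.162 and 0.597 by edgeR).

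Keratins and adhesion genes of the basal and suprabasal layers gave 0 calls among 6 tested by any of the 3 tools. Of all genes tested, 2.70% were called by edgeR. At an unadjusted p under 0.05, 2 of the 6 differed in edgeR, KRT10 higher and KRT5 lower. The list had a median log2 fold change of 0.05. KRT5, KRT14 and DSG3 were highest, at 2325, 67.4 and 85.2 CPM in DMSO and at 1843, 74.0 and 83.6 CPM in DHA (adjusted p = 0.182, 0.696 and 0.955 by edgeR). KRT1, a keratin of the skin's suprabasal layers, held 1 to 4 counts per library.

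**Figure D5:**
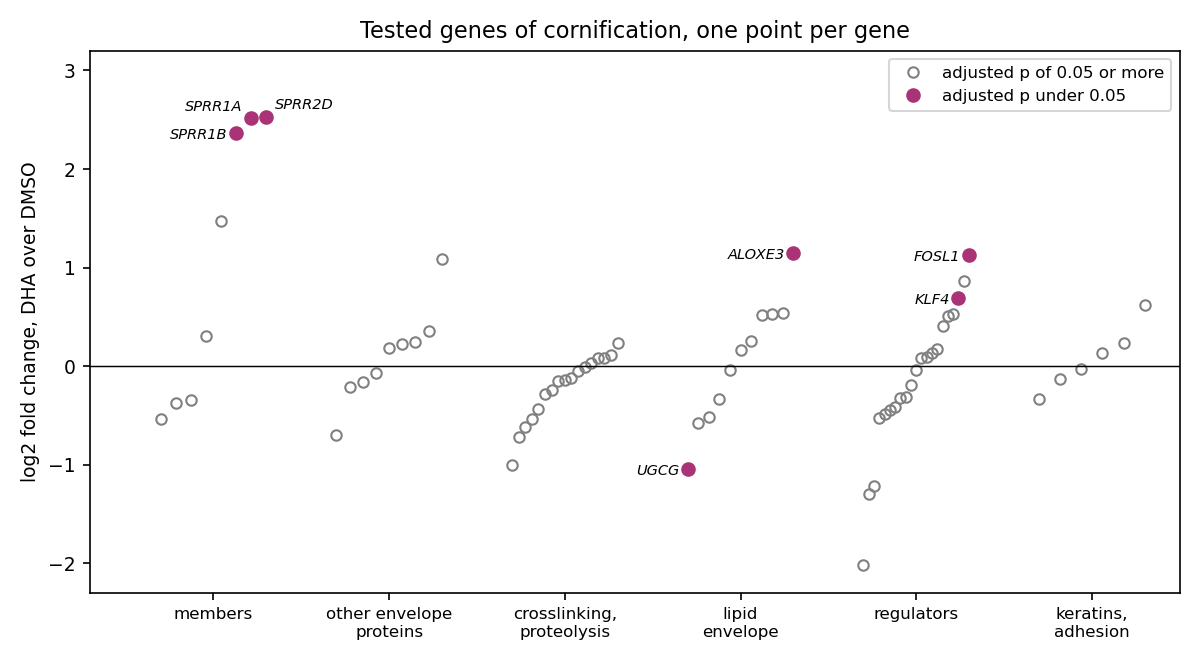
Log2 fold change of DHA over DMSO for the tested members and for tested genes of 5 other lists of cornification, one point per gene, filled where the adjusted p was under 0.05. The 3 filled members are SPRR1A, SPRR1B and SPRR2D, and 4 genes are filled in the other lists, ALOXE3, UGCG, FOSL1 and KLF4.

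The genes whose pattern over the 6 libraries was closest to that of the SPRR sum were AKR1C1, CXCL2, AKR1C2, CHAC1 and SESN2. Closeness was the root mean square difference of log2 CPM, centred on each gene's mean, among 10638 genes that averaged 5 CPM or more, and it was 0.22, 0.31, 0.37, 0.44 and 0.49 in that order. AKR1C1, an aldo-keto reductase gene, was at 14.5, 26.0 and 19.8 CPM in DMSO and at 106, 143 and 96.7 CPM in DHA. As in the SPRR sum, DMSO 1 was lowest and DHA 2 highest. The distance takes in the difference between DHA and DMSO, from which the SPRR members were partly chosen. The genes named rose by 1.60 (CHAC1) to 2.52 (AKR1C1) on the log2 scale. The ranking describes likeness over these 6 libraries and was not tested.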

How the data were processed

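Per the labels' protocols, RNA was taken up in TRIzol and 6 CAL-27 libraries, 3 per group, were made (VAHTS Universal V10). The deposited values are raw counts of reads per gene, which the authors made with fastp, HISAT2 and HTSeq on GRCh38, per the submitters' processing notes, and no strand setting was found there. From the counts, edgeR 4.0.16 (R 4.3.3) computed TMM factors, kept genes passing its filter with a minimum count of 10, and fitted DHA against DMSO to all 6 libraries by the quasi-likelihood F test. Adjusted p-values are Benjamini-Hochberg values with a threshold of 0.05, the SE of a log2 fold change was taken from its F statistic, and CPM uses the TMM-scaled totals. The SPRR sum was fitted in a table where it replaced the SPRR genes. Scripts were tested on simulated data. DESeq2 1.42.0, limma 3.58.1 with voom, other scalings and filters, a replicate block and leaving out each library were tried.

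The members and gene lists were chosen with earlier results of these data known. The genes named are all 10 members, the other SPRR genes, each list's called genes and up to 3 with the highest mean CPM, and the 5 genes most like the SPRR sum among those of at least 5 CPM. Promoters and coordinates are RefSeq's on GRCh38.p14, and lengths are the union of exons of GENCODE 29. The labels do not state that same-numbered libraries share a culture or day, so they were not paired, and the replicate block was an alternative. Some genes that this rule names are not reported here. Genes that DESeq2 alone called are named outside the rule, chosen after their values were seen.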

Additional observations from a re-analysis of the deposited data

How the results depend on the processing

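The SPRR sum kept its direction under all 18 alternatives run and passed the threshold in 17, with a log2 fold change of 2.06 to 2.68 when each library was left out. It missed the threshold without DHA 1, at 2.42 (edgeR's adjusted p = 0.0509). The alternatives include other sums of the same SPRR rows. With the minimum mean of 5 CPM, the sum stayed in only through DHA (1.83 CPM in DMSO, 9.56 CPM in DHA). The SPRR members were chosen with results of this comparison known, so these fits describe the sum and add no support. The number of members called stayed at 3 except for 4 with no filter, 0 with a minimum mean of 5 CPM, a filter that removes every SPRR gene, and 0 to 4 when each library was left out: 0 without DHA 1, 4 without DHA 3, where SPRR3 was added, and 2 without any other library. SPRR3 entered the fit without DHA 3 only through DHA 1 and DHA 2, with 16 and 13 counts against 1 in each DMSO library. TGM1 turned from negative to 0.21 without DMSO 1, and its left-out values ran from -0.81 to 0.21.

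Over all genes, 395 were called, against 649 with no filter, 252 with a minimum mean of 5 CPM, 1135 by the DESeq2 Wald test, and 16 to 789 when each library was left out, the fewest without DHA 1 and the most without DHA 3. Left-out fits compare 2 libraries with 3, and the cause of the range was not tested. With the replicate block, 1272 genes and 3 members were called. Deviations of same-numbered libraries correlated at 0.26, 0.12 and -0.04. DMSO 1 correlated best with DHA 1 and DMSO 2 with DHA 2, but DMSO 3 also correlated best with DHA 2. These values do not settle whether the numbers pair the libraries. KLF4 also missed the threshold with unscaled library totals (edgeR's adjusted p = 0.0542) and with the minimum of 5 CPM (0.0537). Depth limits SPRR3, IVL and the other SPRR genes, which held too few counts for the filter. TGM1 and IVL averaged under 5 CPM, so no genes most like them were sought, and protein sequences were not used here.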
